A study of Mus musculus with 8 samples.

Results

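Integrins are the receptors by which cells hold on to the extracellular matrix, and laminins are the matrix proteins that build basement membranes and that several integrins bind. The genes examined were 26 integrin subunits (Itga and Itgb genes) and 11 laminin chains (Lama, Lamb and Lamc genes), 37 in all. Within these families, membership was set by gene symbol, through the RefSeq accession of each array probe, and by no measured value of a gene; the families were picked with earlier results of these data known. Of the 37 genes, 34 had a probe and 23 were tested, 14 integrin subunits and 9 laminin chains, out of 13539 genes tested on the arrays.

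The samples were primary spheres grown from the superior mesenteric ganglion, a sympathetic ganglion, of 3-week-old mice of the strain 129+Ter/SvJcl that were hemizygous for TH-MYCN. This transgene puts human MYCN under the tyrosine hydroxylase promoter, which is active in sympathetic cells, and all samples carried it, so nothing here compares mice with and without MYCN. Dissociated cells of 1 ganglion were divided between a medium with retinoic acid, RA (+), and a medium without it, RA (-), and the spheres were collected after 8 days. With 4 animals this gave 4 arrays per medium, and each RA (-) array had an RA (+) partner from the same animal. Spheres were profiled whole, so fewer cells of a type and less RNA per cell cannot be told apart.

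An integrin is a pair of an alpha and a beta subunit, and the pair decides which matrix protein is bound. A laminin is a trimer of an alpha, a beta and a gamma chain, secreted into the basement membrane, where nidogens, perlecan, agrin and type IV collagen join it. In peripheral nerves and ganglia, basement membranes surround Schwann cells and satellite glia, and laminins and fibronectin support the migration of neural crest cells and the outgrowth of axons. Integrins that bind fibronectin include those with the alpha subunits Itga4, Itga5 and Itgav, and those that bind laminin include pairs of Itga3, Itga6 or Itga7 with Itgb1, and of Itga6 with Itgb4.

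The share of non-control spots that stood well above background was 52.7% to 55.3% on RA (+) arrays and 48.5% to 55.01% on RA (-) arrays. The markers of sympathetic neuroblasts Phox2a, Dbh and Th were well above background on all 8 arrays, as were all 12 genes of that list. A level is the log2 of a probe's processed intensity minus the log2 of its array's 75th percentile, and a change is the RA (-) level minus the RA (+) level. Levels of different probes cannot be ranked against each other. Called means an adjusted p under 0.05 by limma, with the animal as a block and Benjamini-Hochberg adjustment over all 13539 genes.

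Without RA, 5 integrin subunits were lower by more than 1 on the log2 scale, the alpha subunits Itga11, Itga4, Itga3 and Itga9 and the beta subunit Itgb4. Among the laminin chains, the gamma chain Lamc3 and the alpha chains Lama1 and Lama4 were lower. The common beta subunit Itgb1 and the common laminin chains Lamb1 and Lamc1 moved by at most 0.26. Of the 23 tested genes, 13 (56.5%) were called, against 64.3% of all tested genes. Calls of higher genes numbered 3, against 36.1% of all genes, and calls of lower genes numbered 10, against 28.2% of all genes. The median change was −0.16 over the 23 genes and 0.07 over all tested genes. A called log2 change of 1 or more was seen in 6 of the 23 genes (26.1%), against 18.1% of all genes, and each of these 6 was lower. That count depends on the setting. Under normexp background correction with quantile normalization, Itga9 (−0.89), Itgb4 (−0.43) and Lamc3 (−0.32) fell short of that size. Itga9 also did under spike-in scaling (−0.88). The share of all genes at that size was not counted in those settings. The 4 RA (-) arrays and the 4 RA (+) arrays did not overlap for 10 of the 23 genes (43.5%), against 53.3% of all genes. The count of 3 higher genes fell to 1 without animal 2, 3 or 4, with scaling on the 75th percentile of detected probes, and with no filter on dim probes, where 34 genes were tested and their median change was 0.0327.

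**Figure D1:**
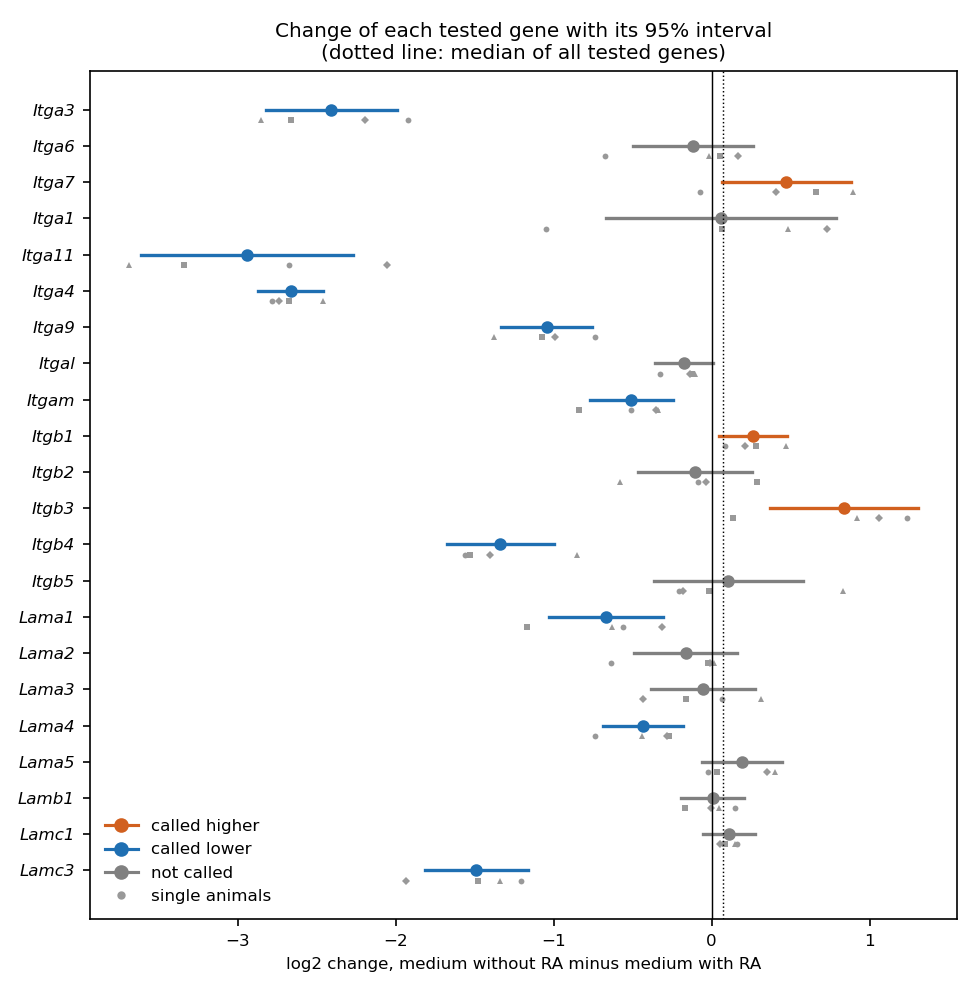
Change of 22 of the 23 tested genes on the log2 scale (x axis, RA (-) minus RA (+)), with its 95% interval from limma, and the differences of the 4 single animals as small grey symbols beneath it. Called decreases reach −2.94 for Itga11, the 3 called increases lie at 0.26, 0.47 and 0.84, and the dotted line marks the median of all tested genes, 0.07.

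The integrins that bind fibronectin through Itga4, and those that bind tenascin and osteopontin through Itga9, formed a group of 2 alpha subunits that were both lower without RA. Itga4, which pairs with Itgb1 or Itgb7 and which migrating neural crest cells and leukocytes use, stood at 1.63, 1.82, 1.32 and 1.55 on RA (+) arrays 1 to 4. On RA (-) arrays 1 to 4 it stood at −1.15, −0.86, −1.14 and −1.19. All 4 RA (-) arrays lay below all 4 RA (+) arrays, with a gap far wider than the spread within either medium. Its change was −2.66 (SE 0.08, 95% interval −2.87 to −2.46, n = 4 animals, adjusted p = 3.7e-05), which is 6.33-fold lower, and it was the gene with the smallest adjusted p among the 23. A second Itga4 probe was well above background on 3 arrays and was not tested. The levels of Itga9, which pairs with Itgb1, were 1.47, 1.34, 1.103 and 1.28 with RA and 0.73, 0.26, −0.27 and 0.29 without RA. Again the media did not overlap, and the RA (-) array of animal 3 was the lowest. The change was −1.04 (SE 0.12, adjusted p = 0.000725), 2.06-fold lower.

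Of the 4 alpha subunits that bind collagen, Itga1 and Itga11 were tested. Itga11, a receptor for fibrillar collagens found mainly on mesenchymal cells, was at −1.11, −1.49, −1.21 and −1.57 with RA. Without RA it was at −3.79, −4.83, −4.90 and −3.62, and only 2 of these 4 arrays were well above background. The media did not overlap, and its change of −2.94 (SE 0.27, 95% interval −3.61 to −2.27, adjusted p = 0.000399), 7.66-fold lower, rests partly on signals near background. Under normexp background correction with quantile normalization it was −1.15, smaller than the changes of Itga4 (−2.20) and Itga3 (−1.49) in that setting. Itga1, which pairs with Itgb1 as a receptor for collagen IV and laminin, went from −1.15 ± 0.16 to −1.09 ± 0.74 (SD, n = 4). Its RA (-) arrays spanned −2.09 in animal 1 to −0.49 in animal 3, so the media overlapped. A change of 0.06 (95% interval −0.67 to 0.79, adjusted p = 0.872) was not called, and the interval leaves room for changes in both directions.

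The promoter windows of Itga4 and Itga11 are shown because these genes had the 2 largest decreases on the scale used here (under normexp that of Itga3 lay between them), and that of Itgb1, the partner of both, because it was not lower. Each runs over the 250 bases before the annotated start, 5′ to 3′ on the gene's strand, from RefSeq (GRCm38.p6). All 3 genes lie on the plus strand. Capitals mark matches, on either strand, to GGGCGG (the GC box that Sp1 binds) or to a retinoic acid receptor half-site (AGGTCA or, as a variant of it, AGTTCA or, as another, GGGTCA or, as another, GGTTCA).
Itga4, chr2:79255176-79255425: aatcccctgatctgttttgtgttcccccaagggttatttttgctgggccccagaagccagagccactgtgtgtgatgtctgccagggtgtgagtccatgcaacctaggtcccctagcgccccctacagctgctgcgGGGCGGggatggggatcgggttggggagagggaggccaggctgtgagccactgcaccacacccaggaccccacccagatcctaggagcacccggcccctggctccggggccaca
Itga11, chr9:62677605-62677854: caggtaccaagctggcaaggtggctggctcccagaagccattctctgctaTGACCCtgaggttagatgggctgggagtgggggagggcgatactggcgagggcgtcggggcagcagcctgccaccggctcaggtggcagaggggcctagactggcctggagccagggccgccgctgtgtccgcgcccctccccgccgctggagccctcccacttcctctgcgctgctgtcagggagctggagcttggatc
Itgb1, chr8:128685404-128685653: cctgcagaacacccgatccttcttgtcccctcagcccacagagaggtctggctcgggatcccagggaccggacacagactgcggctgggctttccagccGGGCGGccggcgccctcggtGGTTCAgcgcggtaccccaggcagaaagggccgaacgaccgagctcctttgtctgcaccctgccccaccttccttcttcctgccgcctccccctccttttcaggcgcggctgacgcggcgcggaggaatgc
The Itga4 window held 1 GC box and no half-site, with a GC content of 64%. For Itga11 there was no GC box, 1 half-site (GGGTCA, on the reverse strand) and a GC content of 68.4%, and for Itgb1 1 GC box, 1 half-site (GGTTCA) and 68%. The median GC content over all 32851 windows was 52.4%. Windows were found for 23 of the 37 genes, 26 windows in all. Of these 26, 9 held GGGCGG, against 32.7% of all windows, and none held AGGTCA, which 14% of all windows had. The other half-sites were AGTTCA in 2 of 26 (11.8% of all windows), GGGTCA in 5 of 26 (11.6%) and GGTTCA in 2 of 26 (8.85%). CACGTG, the E-box that MYC proteins bind, was in none of the 26 and in 6.02% of all windows. No window of these genes held a direct repeat of 2 half-sites spaced by 1, 2 or 5 bases, an arrangement that 0.164%, 0.174% and 0.0883% of all windows had. These are matches of letters only.

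Among the alpha subunits that bind laminin, Itga3 was lower, Itga7 was higher and Itga6 was not called. Itga3, which pairs with Itgb1 and binds mainly the laminins made with Lama3 or Lama5, was at 0.25, −0.01, 0.17 and 0.03 with RA. Its levels without RA were −1.68, −2.67, −2.68 and −2.16. Every RA (-) array lay below every RA (+) array, and animal 1 had the smallest difference. The change was −2.41 (SE 0.17, 95% interval −2.82 to −1.99, adjusted p = 0.000172), 5.30-fold lower. Itga7, the laminin receptor of muscle and of regenerating neurons, had RA (+) levels of −0.13, −0.54, −0.53 and −0.56 and RA (-) levels of −0.21, 0.12, 0.37 and −0.15. It was higher without RA in 3 of 4 animals, not in animal 1, and the media overlapped. Its change was 0.47 (SE 0.16, 95% interval 0.07 to 0.88, adjusted p = 0.0470). That call was lost when animal 2, 3 or 4 was left out (adjusted p = 0.148, 0.14 and 0.101), with scaling on the 75th percentile of detected probes (0.0917) and with no filter on dim probes (0.0823). Itga6, which pairs with Itgb1 or Itgb4 and is present on Schwann cells and many stem cells, was at 4.99 ± 0.47 with RA and 4.87 ± 0.13 without (SD, n = 4). Animal 1 alone stood apart, at 5.70 on its RA (+) array against 4.74 to 4.77 on the other 3. The change of −0.12 (95% interval −0.50 to 0.26, adjusted p = 0.527) was not called, and under normexp background correction with quantile normalization it was −0.39 and called (adjusted p = 0.0378).

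Of the 5 beta subunits tested, Itgb4 was lower, Itgb3 and Itgb1 were higher, and Itgb2 and Itgb5 were not called. Itgb4 pairs with Itga6 alone and ties laminin to intermediate filaments in epithelia and to the Schwann cell surface in nerves. Its RA (+) arrays were close together, at −2.02, −2.07, −2.04 and −1.97, and its RA (-) arrays were at −3.58, −3.60, −2.89 and −3.38. The media did not overlap, and the change was −1.34 (SE 0.14, 95% interval −1.68 to −0.998, adjusted p = 0.000558), 2.53-fold lower. Its only partner Itga6 had the change of −0.12 given above. Itgb1, the partner of most of the tested alpha subunits, was at 1.25, 1.37, 1.04 and 1.31 with RA and 1.33, 1.66, 1.504 and 1.52 without. It was higher in 4 of 4 animals, but the media overlapped, since RA (-) animal 1 lay below RA (+) animal 2. Its change was 0.26 (SE 0.09, 95% interval 0.05 to 0.48, adjusted p = 0.0400), and another Itgb1 probe gave 0.42. The Itgb1 call was lost under 8 of 13 alternatives, with changes from 0.17 (75th percentile of detected probes) to 0.42 (spike-in scaling), among them the fit without the animal block (adjusted p = 0.0583) and those without animal 2, 3 or 4 (0.12, 0.0839 and 0.0975).

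Itgb3, which pairs with Itgav or Itga2b and binds vitronectin, fibrinogen and osteopontin, was dim on these arrays. It was at −4.23, −4.43, −3.95 and −4.53 with RA, where 3 of 4 arrays were well above background, and at −3.00, −4.29, −3.03 and −3.47 without RA, where all 4 were. Animal 2 had the smallest difference, and its RA (-) array fell within the RA (+) range. The change was 0.84 (SE 0.19, 95% interval 0.37 to 1.30, adjusted p = 0.0102), higher in 4 of 4 animals and 1.79-fold. The other Itgb3 probe was below that limit on all 8 arrays. Neither of its partners was tested: Itgav was not well above background on any of the 8 arrays by either of its 2 probes, and Itga2b was so on 1 array per medium. Itgb5, another partner of Itgav, went from −2.46 ± 0.03 to −2.35 ± 0.50 (SD, n = 4). Its RA (-) array of animal 3, at −1.62, was the highest of the 8, and the change of 0.11 (95% interval −0.37 to 0.58, adjusted p = 0.651) was not called.

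Of the leukocyte integrins, Itgam, Itgal and Itgb2 were tested. Itgam, the alpha subunit of complement receptor 3 on macrophages and neutrophils, was at 4.32, 4.43, 4.12 and 4.05 with RA and 3.82, 3.59, 3.78 and 3.70 without. The media did not overlap, and the change was −0.51 (SE 0.11, 95% interval −0.77 to −0.24, adjusted p = 0.00786). The probes of Itgam disagreed: the change was −0.16 for another probe, which was well above background on all 8 arrays but was not called among all probes (adjusted p = 0.239), and the other probe was well above background on only 2 arrays. That other probe's mean difference was 0.12, opposite in sign. The mean of the 2 probes that passed the filter was −0.33, still called lower. Signals of the Itgam probes also lay far apart. Mean levels over the 8 arrays were 3.98 for the tested probe, −3.18 for the one with −0.16 and −4.26 for the remaining one. Whether the bright signal comes from Itgam alone was not tested. Its partner Itgb2, the beta subunit common to the leukocyte integrins, was near background, at −4.27 ± 0.16 with RA and −4.37 ± 0.22 without (SD, n = 4). It was well above background on 3 RA (+) arrays and 1 RA (-) array, and its change of −0.10 (95% interval −0.46 to 0.26, adjusted p = 0.564) was not called. Itgal, found on lymphocytes and other leukocytes, had a change of −0.17 (95% interval −0.36 to 0.01, adjusted p = 0.0879), negative in 4 of 4 animals. Of the leukocyte marker list, 6 of 13 genes were tested, and 33.3% of the tested were called, against 64.3% of all genes. Of these 6, Fcer1g (0.33), Csf1r (0.02), C1qb (0.04) and Cd3e (−0.07) were not called. Adgre1 and Aif1 were called lower, having passed the filter through the RA (+) arrays alone. A filter on detection on all 8 arrays leaves both out. Its summed linear level was 2.35 to 4.01 times the 75th percentile on the RA (+) arrays and 2.88 to 3.20 times on the RA (-) arrays. Of its defining markers, Ptprc and Cd14 were not well above background on any of the 8 arrays, and Adgre1 and Aif1 were so on all 4 RA (+) arrays and on no RA (-) array. They were at least 1.44-fold and 1.49-fold lower without RA, while normexp gave log2 changes of −0.31 and −0.41, smaller than these bounds. The part of these markers in the Itgam result was not tested.

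**Figure D2:**
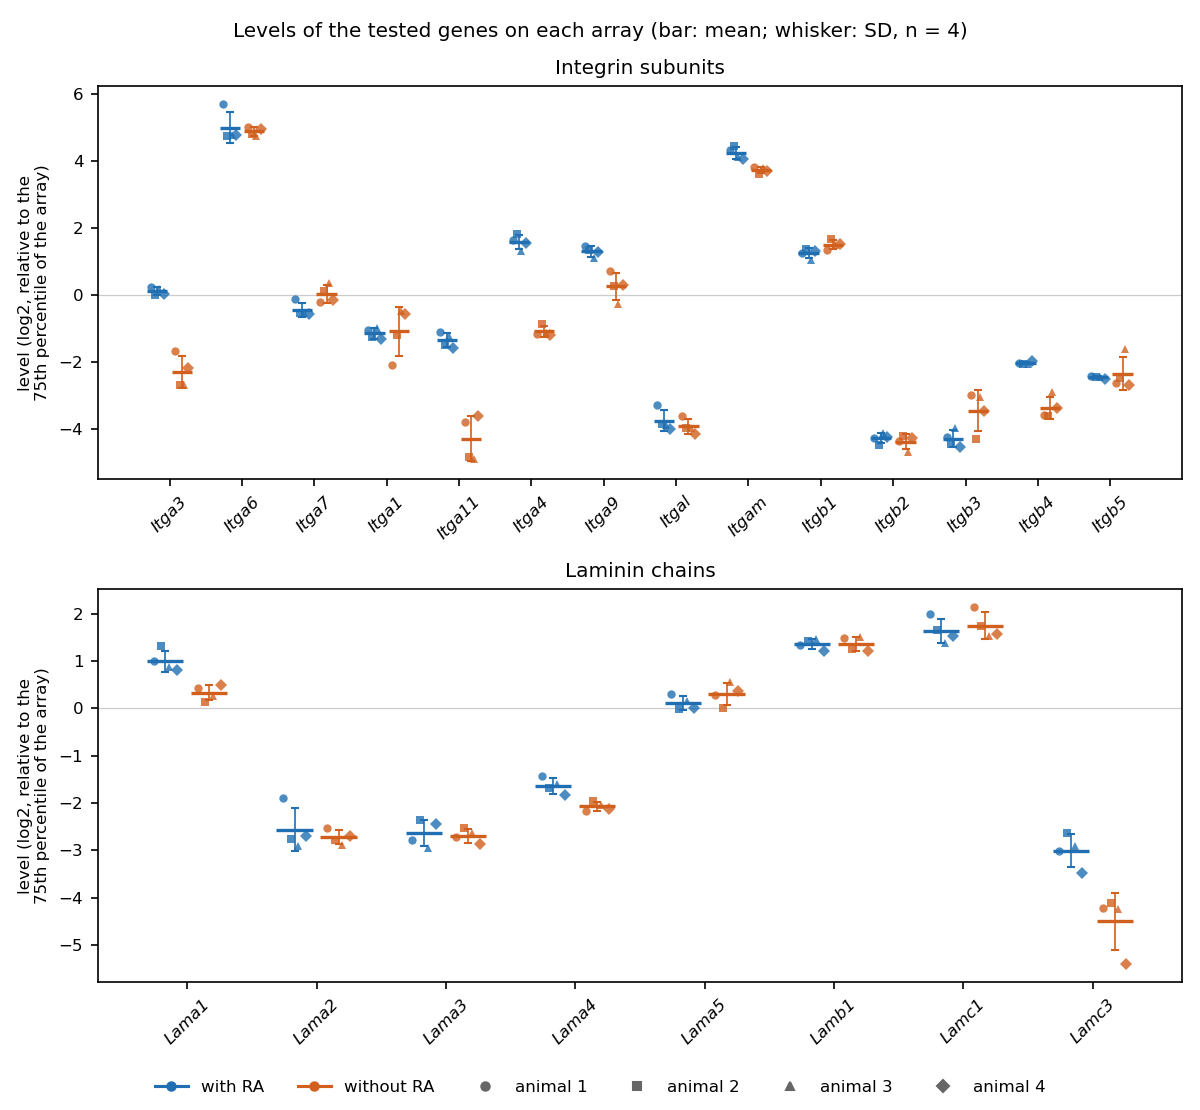
Level of 22 of the 23 tested genes on each of the 8 arrays (y axis, log2 above or below the array's 75th percentile), integrin subunits above and laminin chains below, with RA in blue and without RA in orange. Symbols mark the animals, and bars and whiskers give the mean and SD of 4 arrays. The media are widely apart for Itga3, Itga11, Itga4, Itgb4 and Lamc3, and overlap for Itga6, Itgb1, Lamb1 and Lamc1; heights of different genes are not comparable.

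The laminin alpha chains carry the sites that integrins and dystroglycan bind. Of the 5 alpha chains, all tested, Lama1 and Lama4 were lower without RA and the other 3 were not called. Lama1, the chain of the earliest embryonic basement membranes, was at 1.00, 1.31, 0.89 and 0.81 with RA. Its RA (-) levels were 0.44, 0.14, 0.25 and 0.49. The media did not overlap, with a change of −0.67 (SE 0.15, 95% interval −1.03 to −0.31, adjusted p = 0.00905), 1.59-fold lower. Lama4, a chain of vessel walls and of peripheral nerve, was at −1.43, −1.69, −1.61 and −1.83 with RA and at −2.16, −1.96, −2.04 and −2.11 without. Here too the 2 sets of arrays were separate, with a change of −0.43 (SE 0.10, 95% interval −0.68 to −0.18, adjusted p = 0.0121), 1.35-fold lower. Under scaling to spike-in probes, which moved the median change of all genes from 0.07 to 0.23, the changes of Lama1 (−0.51), Lama4 (−0.27) and Itgam (−0.35) were no longer called, with adjusted p = 0.123, 0.445 and 0.316.

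Lama2, the main alpha chain around Schwann cells and muscle fibres, had a change of −0.16 (95% interval −0.49 to 0.16, adjusted p = 0.317). Animal 1 had −1.90 on its RA (+) array and −2.53 on its RA (-) array, and the other 6 arrays lay between −2.90 and −2.69. Lama5, found in many adult basement membranes, had a change of 0.19 (95% interval −0.06 to 0.44, adjusted p = 0.150) and was higher in 3 of 4 animals. For Lama3, the chain of epithelial anchoring laminins, the tested probe gave −0.05 (95% interval −0.38 to 0.27, adjusted p = 0.740). A second Lama3 probe gave −0.77 (adjusted p = 0.0107 among all probes), so the 2 probes disagreed, and their mean was called lower (−0.41, adjusted p = 0.0184).

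The beta chain Lamb1 and the gamma chain Lamc1, which most laminins contain, were not called. Lamb1 was at 1.36 ± 0.11 with RA and 1.37 ± 0.15 without (SD, n = 4), a change of 0.01 (95% interval −0.19 to 0.21, adjusted p = 0.949). Lamc1 was at 1.64 ± 0.26 and 1.75 ± 0.28, a change of 0.11 (95% interval −0.06 to 0.28, adjusted p = 0.197) that was positive in 4 of 4 animals. Lamc3, a gamma chain of neural tissue and other sites, was at −3.01, −2.64, −2.91 and −3.47 with RA and −4.22, −4.12, −4.24 and −5.40 without, where 2 of 4 arrays were well above background. The 2 sets of arrays were separate, with a change of −1.49 (SE 0.13, 95% interval −1.82 to −1.16, adjusted p = 0.000346), 2.81-fold lower.

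Of the 34 genes with a probe, 18 were well above background on all 8 arrays. A further 10 were not so on any of the 8 arrays and only have an upper bound in both media: Itga2, Itga5, Itga8, Itgav, Itgax, Itgad, Itgb6, Itgb7, Itgb8 and Lamb3. These include 3 of the 4 alpha subunits that bind the RGD sequence of fibronectin and vitronectin (Itga5, Itga8 and Itgav). No gene was well above background in 1 medium and on no array of the other. Itga10, Itgae and Lamb2 had no probe matched through an accession and were not analysed here.

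**Figure D3:**
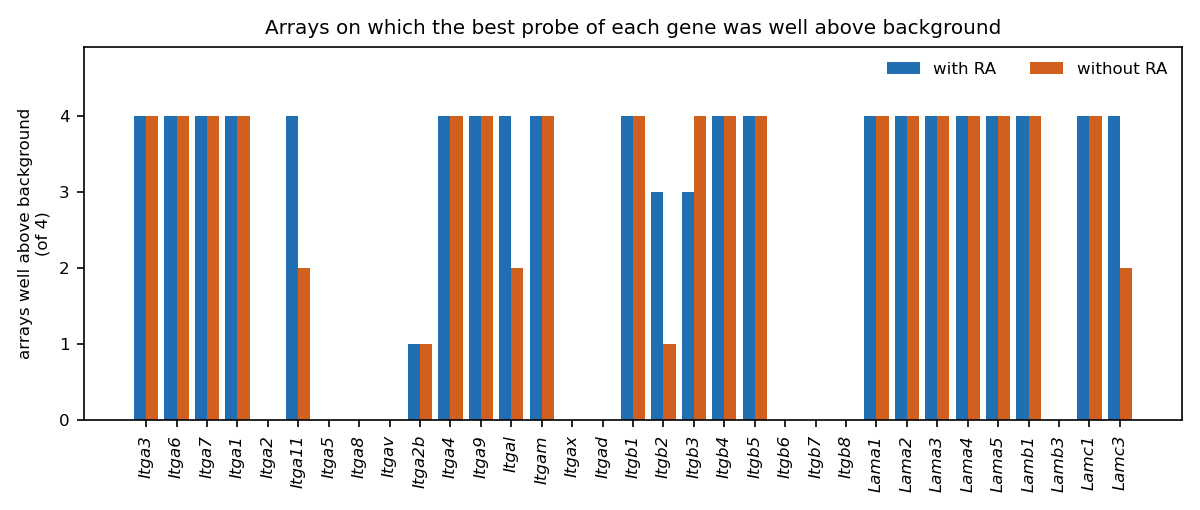
Number of arrays, out of 4 per medium (y axis), on which the brightest probe of 33 of the 34 genes was well above background, with RA in blue and without RA in orange. Counts of 4 and 4 were found for 17 of these genes, Itga11, Itgal, Itgb2 and Lamc3 were detected on fewer RA (-) arrays and Itgb3 on fewer RA (+) arrays, Itga2b was detected on 1 array per medium, and 10 genes have no bar.

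Other genes of the pathway were counted in lists drawn up by function. Of 14 other basement membrane genes, 9 were tested, and 2 were called higher and 3 lower, with a median change of 0.12. The higher genes were Hspg2, which encodes perlecan (0.82, SE 0.12, adjusted p = 0.00195), and Nid1, which encodes the laminin-binding nidogen (0.70, SE 0.11, adjusted p = 0.00307). Lower genes included Agrn, the proteoglycan agrin (−0.66, SE 0.09, adjusted p = 0.00154), and the collagen IV chain Col4a1 (−0.49, SE 0.13, adjusted p = 0.0201). Under spike-in scaling none of the 9 was called lower (Agrn adjusted p = 0.132, Col4a1 0.337), and without animal 4 Col4a1 was not called (0.0713).

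Of 20 integrin ligands other than laminins and collagens, 12 were tested, with 4 called higher, 3 lower and a median of 0.54. Ccn3 (formerly Nov), a secreted ligand of several integrins, was well above background on all 4 RA (+) arrays and on no RA (-) array, at least 5.87-fold lower without RA. Thbs2, a thrombospondin, was well above background on no RA (+) array and on all 4 RA (-) arrays, at least 3.34-fold higher. Both passed the filter only through the medium where they were high. With detection required on all 8 arrays 3 ligands were called higher and 2 lower. Spp1, which encodes the Itga9 and Itgb3 ligand osteopontin, went from −2.66 ± 1.01 to 0.70 ± 0.64 (SD, n = 4), a change of 3.36 (SE 0.37, adjusted p = 0.000726). Tnr, which encodes the neural matrix protein tenascin-R, had a change of −1.69 (SE 0.34, adjusted p = 0.00678).

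Among 17 laminin receptors that are not integrins and the enzymes that put the laminin-binding sugar on dystroglycan, 15 were tested, 3 were called higher and 6 lower, and the median was −0.00. Bcam, the receptor for laminins with Lama5, had a change of −2.84 (SE 0.26, adjusted p = 0.000412) and was well above background on 1 of 4 RA (-) arrays. Among the heparan sulphate proteoglycans of the list, Sdc2 and Sdc3 had changes of −1.70 (SE 0.17) and −1.21 (SE 0.11), with adjusted p = 0.000567 and 0.000416. Sdc1 of the same family was called higher (0.86, SE 0.08, adjusted p = 0.000417), and Sdc4 was not called (0.01, adjusted p = 0.936).

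Of 30 adaptor genes on the cytoplasmic side of integrins, 26 were tested, with 6 called higher, 6 lower and a median of −0.02. Parva, a partner of integrin-linked kinase, had a change of −1.88 (SE 0.12, adjusted p = 0.000153) and the actin crosslinker Actn1 one of −1.68 (SE 0.14, adjusted p = 0.000303). Tns3, a tensin that binds beta subunits, had a change of 1.101 (SE 0.07, adjusted p = 0.000162), and Lims2, another partner of integrin-linked kinase, one of 0.94 (SE 0.08, adjusted p = 0.000280). Of 17 membrane partners and regulators of integrins, 15 were tested, 3 called higher and 6 lower, with a median of −0.24. Among the tetraspanins, Cd9, Cd82 and Cd151, of which Cd151 associates closely with the laminin-binding integrins, had changes of −1.30 (SE 0.14), −0.94 (SE 0.14) and −0.80 (SE 0.09), with adjusted p = 0.000661, 0.00209 and 0.000758. Of the other tetraspanins listed, Tspan4 was called lower (−0.55, adjusted p = 0.00253). Cd63 was called higher (0.28, adjusted p = 0.0233) and Cd81 was not called (−0.03, adjusted p = 0.785). Rasip1, a regulator of small GTPases, had a change of −1.26 (SE 0.24, adjusted p = 0.00509). Shares called in these lists lay between 46.2% and 60%, against 64.3% of all genes.

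**Figure D4:**
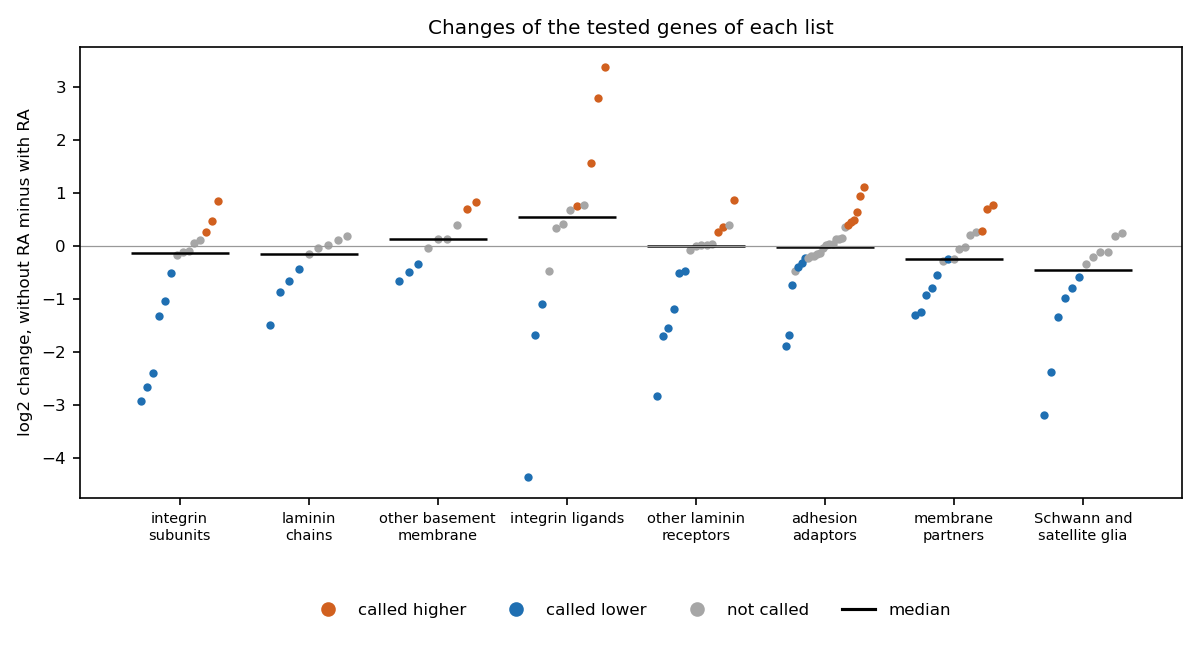
Change of every tested gene (y axis, log2, RA (-) minus RA (+)) in the integrin and laminin families, in 5 lists of related genes and in the Schwann and satellite glia markers, ordered by size within each list; orange and blue mark calls and the black bar is the median. Spp1 is the highest point at 3.36, the lowest point (Ccn3) and that of Thbs2 stand against background in 1 medium so that only their bounds have a meaning, and the median of each list lies between −0.47 and 0.54.

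Markers of other cells of a ganglion were counted too, and their values stand beside the decreases of Itga11, Itgb4, Itga3, Lama1, Lama4 and Lamc3. Against 64.3% of all genes, the shares called were 50% for glial, 75% for fibroblast, 66.7% for sympathetic and 20% for endothelial markers. For adrenal cortex, smooth muscle and pericyte, and platelet markers the shares were 33.3%, 0% and 100% (2 tested). Of 15 markers of Schwann cells and satellite glia, 12 were tested, with a median of −0.47. Of the 12 tested, 6 (50%) were called lower, against 28.2% of all genes, and none higher. Their summed linear level was 51.6 to 58.6 times the 75th percentile on the RA (+) arrays and 26.6 to 34.1 times on the RA (-) arrays. The largest decreases were those of Kcnj10 (−3.19), Ngfr (−2.39) and Prx (−1.34), while the defining marker Sox10 (−0.12, adjusted p = 0.257) was not called. Of 12 fibroblast markers, 8 were tested, 2 were called higher and 4 lower, with S100a4 at 2.18, Pi16 at −1.95 and Fap at −1.74, and summed levels of 8.03 to 12.3 with RA and 13.4 to 19.7 without. The defining fibroblast markers Col1a2 (1.03) and Col3a1 (−0.74) moved in opposite directions, and Lum was not well above background on any of the 8 arrays. Dcn was at least 1.64-fold lower by its bound on means. Its media overlapped, with −4.01 on the RA (-) array of animal 3 and −4.05 on the RA (+) array of animal 2. Endothelial markers had summed levels of 8.64 to 10.9 with RA and 8.93 to 10.1 without, with 1 of 5 tested called lower (Pecam1, −0.34), while Flt1 (0.37) and Vwf (−0.12) were not called and Cdh5 and Tek were not well above background on any of the 8 arrays. Of the platelet markers, Gp1bb (−1.37) was called lower, the tested markers summed to 0.739 to 0.886 with RA and 0.334 to 0.438 without, and Gp9, Pf4 and Ppbp were not well above background on any of the 8 arrays. Smooth muscle and pericyte markers summed to 0.927 to 1.57 with RA and 1.04 to 1.23 without, and none of the 3 tested was called (Rgs5 −0.46, Cspg4 −0.24, Tagln −0.12), with Myh11 not well above background on any of the 8 arrays. Adrenal cortex markers summed to 0.534 to 0.682 with RA and 0.627 to 0.768 without, with Star called higher (0.73), Cyp21a1 (0.35) and Nr5a1 (0.10) not called, and Cyp11a1 and Cyp11b1 not well above background on any of the 8 arrays. Within the sympathetic list Th (3.59), Gata2 (2.12) and Isl1 (2.00) were higher, Dbh was lower (−1.53), 5 of 12 were called lower in all, and the summed level was 760.5 to 874.4 with RA and 713.5 to 814.8 without. Several marker values depended on the setting: the call of Pecam1 was lost under 8 alternatives and that of Star under normexp (adjusted p = 0.0542), which also gave −0.71 for Fap, −0.88 for Gp1bb and −0.87 for Prx, all still called. Platelet calls fell from 2 to 1 with quantile normalization, normexp, spike-in scaling or no filter on dim probes, and without animal 2 or 3. Rgs5 was called lower with normexp, the 75th percentile of detected probes and without animal 1 (adjusted p = 0.0484, 0.031 and 0.0391), and Cspg4 without animal 2 (−0.61, adjusted p = 0.0189). Flt1 was called higher with quantile normalization and with detection on all 8 arrays (adjusted p = 0.044 and 0.0467), and Cyp21a1 with that detection, with no animal block and without animal 1 (0.0409, 0.032 and 0.0074), and under spike-in scaling 2 sympathetic genes in place of 5 were called lower. Dcn, too, passed the filter only through the RA (+) arrays. The part of any of these cell types in the integrin and laminin changes was not tested.

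The size of several changes was smaller under another background correction. Under normexp with quantile normalization, Itga3 changed by −1.49, Itga11 by −1.15, Itgb4 by −0.43, Lamc3 by −0.32 and Lama4 by −0.23. Itgb3 then changed by 0.25. All of these calls and directions were kept. Itga4 and Itga9 changed by −2.20 and −0.89 in that setting. Among the related genes, normexp gave −1.21 for Ccn3, −1.001 for Bcam, −0.91 for Actn1, −0.89 for Tnr, −0.84 for Sdc2, −0.41 for Rasip1 and −0.26 for Col4a1, and 0.55 for Thbs2, 0.62 for Tns3 and 2.14 for Spp1, all still called. The values for Ccn3 and Thbs2 are smaller than their bounds. List counts moved too: under spike-in scaling 2 adaptor genes in place of 6 were called lower and 1 laminin receptor in place of 3 higher, and without animal 3 or 4 the membrane partners had 1 higher gene in place of 3. For the laminin receptors that count was also 1 without animal 2 or 4. Itga3, Itga11, Itga4, Itga9, Itgb3, Itgb4 and Lamc3 were called in the same direction under every alternative run for them.

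**Figure D5:**
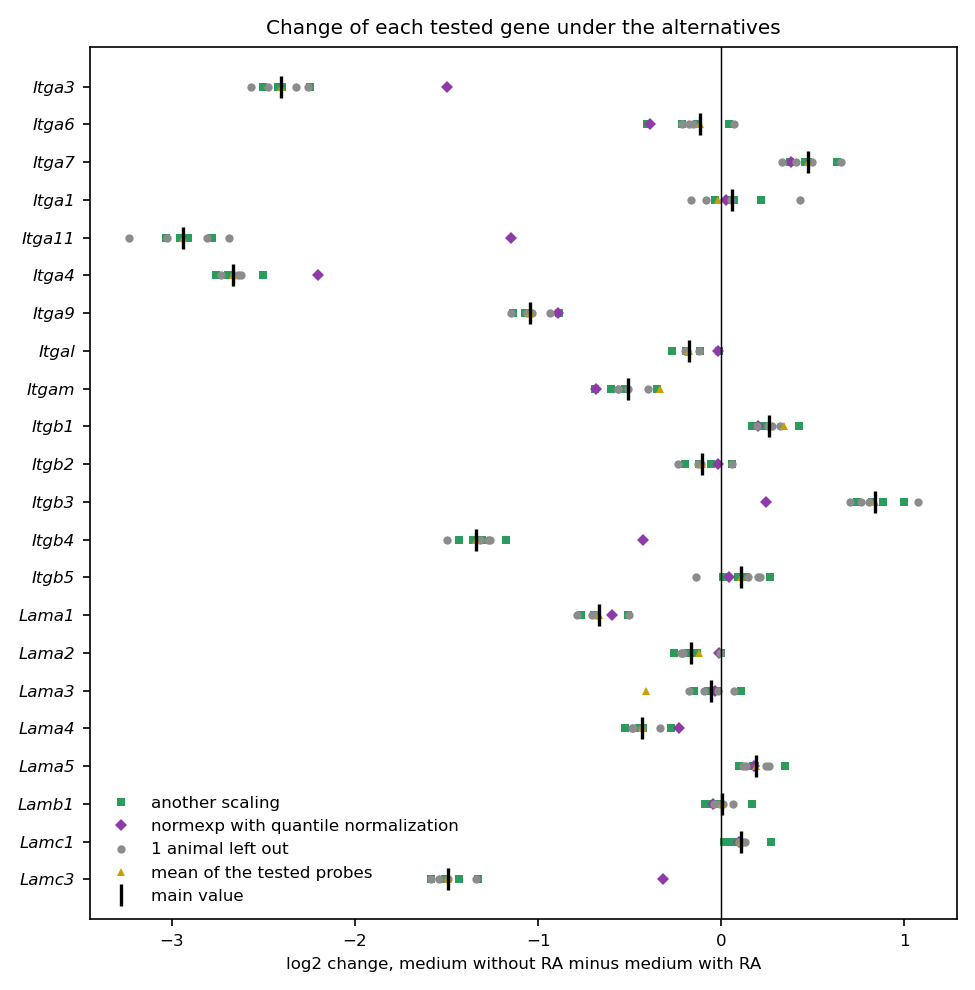
Change of 22 of the 23 tested genes (x axis, log2, RA (-) minus RA (+)) in the main fit (black bar) and under other scalings, another background correction, all probes that passed the filter averaged, or 1 animal left out. Points of Itga4 stay between −2.76 and −2.20 and those of Itga11 spread from −3.23 to −1.15, with the normexp value the smallest decrease.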

How the data were processed

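Gene expression was measured on 1-colour Agilent arrays (design 028005) of 8 samples, 4 per medium. The labels give alternative amounts of RNA per array without tying them to arrays, so a difference in amount between the media could not be checked. Per the file headers, all arrays shared 1 slide and 1 scan, and Agilent Feature Extraction 11.5.1.1 gave the deposited processed intensity, from which background and a spatial trend are removed array by array, with no scaling across arrays. Another deposited table holds log2 values, centred per probe by the authors, whose exact scaling stays unknown. Its columns correlated at 0.99994 to 0.99996, in the same direction, with the scanner values after these were centred on each probe's mean over the 8 arrays. The table's medians were −0.23, −0.22, 0.02 and −0.01 for RA (+) samples 1 to 4 and −0.07, 0.01, 0.17 and 0.20 for RA (-) samples 1 to 4. It served as an alternative.

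Of 62976 spots, 59305 were not controls, for 55681 probes. Spots flagged as outliers were dropped, and 64 probes with them; no non-control spot was saturated. Log2 intensities were centred on the array's 75th percentile (228 to 306 intensity units, against a median local background of 26 to 29), spots of a probe were averaged, and 27206 probes were named by unversioned accession through a RefSeq table (GRCm38.p6), while 28411 stayed unnamed. Array annotation rests on mm9, so coordinates are given for RefSeq promoter windows alone. The test took the brightest probe per gene, provided 4 or more of the 8 arrays flagged it as well above background. R 4.3.3 and limma 3.58.1 (lmFit, eBayes, two-sided) fitted medium and animal, with Benjamini-Hochberg adjustment; the script was first tested on simulated data.

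That equal numbers mean 1 animal comes from the series' account of the cultures. Deviations of same-numbered arrays correlated at 0.49, 0.29, 0.17 and 0.27. Among the RA (-) arrays, the own partner was the closest to each RA (+) array, and the reverse was not checked. The naming rule gave array values for called genes with a log2 change of 0.5 or more (the other called genes have them too), up to 4 called genes per pathway list and up to 3 tested genes per marker list with the largest change, and defining markers. Sdc1, Sdc4, Tspan4, Cd63 and Cd81 were named outside that rule, as further members of families it named. Members, lists and tests were chosen with earlier results of these data known. A bound sets the brighter medium's mean against the dimmer medium's mean of, per array, the higher of the lowest signal among probes well above background and the probe's own. Summed levels add the linear levels of a list's tested genes. Alternatives were quantile normalization, normexp (offset 50, on spot and background medians, the spot mean not being among the columns used here) with quantile normalization, the 75th percentile of detected probes, spike-in scaling (247 spots), the authors' table, no filter on dim probes or detection on all 8 arrays, the mean of a gene's probes that passed the filter, no animal block, and each animal left out. A few genes, among them 1 of the 23 tested, are counted in the totals but are not reported here by name.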

Additional observations from a re-analysis of the deposited data

Results flagged for a closer look

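In 4 of 46 sets of 4 arrays, 1 array lay far from the other 3 by Dixon's test, and chance alone gives about 1 in 20. Itga6 stood at 5.70 on the RA (+) array of animal 1, against 4.74 to 4.77 on the other RA (+) arrays, and Itga7 stood at −0.13 on that same array, against −0.56 to −0.53. Itga4 was at −0.86 on the RA (-) array of animal 2, against −1.19 to −1.14 on the others. Lamc3 was at −5.40 on the RA (-) array of animal 4, against −4.24 to −4.12. Without the animal concerned, Itga6 changed by 0.07 and Itga7 by 0.66, while Itga4 (−2.66) and Lamc3 (−1.34) stayed called lower.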

How the results depend on the processing

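Of the 23 tested genes, 22 kept their direction and side of the threshold without the animal (replicate) block, 22 with the authors' table, 21 each with quantile normalization, normexp, no filter on dim probes and the mean of a gene's tested probes, 18 with the 75th percentile of detected probes and 16 with spike-in scaling, as did all 18 tested on probes detected on all 8 arrays. Leaving out animals 1 to 4 in turn, 21, 21, 17 and 19 did. Without the block, 8022 of all genes were called in place of 8705 and Itgb1 was the call lost (adjusted p = 0.0583). Spike-in scaling gave 5184 calls, 1913 of them lower, in place of 8705 and 3820. Only 1 of the 23 genes, in place of 3, was called higher with the 75th percentile of detected probes and with no filter on dim probes, and leaving out single animals gave 1 to 3. With no filter, 34 integrin and laminin genes were tested, 11 of them dim, and their median change was 0.0327 in place of −0.16. Of the 10 genes that were not called, Itgal, Lama2, Lama5 and Lamc1 kept their sign throughout and the other 6 changed it, as did 3 marker genes. Under spike-in scaling the changes were 0.0415 for Itga6, 0.0568 for Itgb2, 0.106 for Lama3, 0.0361 for Tagln and 0.0359 for Vwf. With the 75th percentile of detected probes they were −0.0359 for Itga1 and −0.0883 for Lamb1, and with the mean of tested probes −0.0194 for Itga1. Lamb1 changed by −0.048 with quantile normalization, −0.0439 with normexp and −0.0097 in the authors' table. Leaving out single animals gave −0.213 to 0.0681 for Itga6, −0.165 to 0.428 for Itga1, −0.234 to 0.0562 for Itgb2, −0.136 to 0.211 for Itgb5, −0.175 to 0.072 for Lama3, −0.0418 to 0.0656 for Lamb1 and −0.0104 to 0.183 for Nr5a1. The cause of these shifts was not tested. Itga11, Itgal, Itgb2, Itgb3 and Lamc3 were the 5 of 23 genes not well above background on every array, so their sizes rest partly on signals near background. Sizes moved as well for some genes detected on all 8 arrays. With normexp, Itga3 changed by −1.49 in place of −2.41 and Itgb4 by −0.43 in place of −1.34.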

Other observations

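Itga2b, which encodes the alpha subunit of the platelet fibrinogen receptor, was well above background on 1 RA (+) and 1 RA (-) array, both of animal 3, at −1.999 and −1.43. On the arrays of the other 3 animals it was at −5.83, −6.65 and −6.28 with RA and −6.61, −6.28 and −5.81 without. It was not tested between the media. The platelet markers Gp9, Pf4 and Ppbp were not well above background on any of the 8 arrays.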
